A study of Mus musculus with 2 samples.

Results

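Genes of the multiciliation programme, through which epithelial cells of the airway, brain ventricles and oviduct make many centrioles and many motile cilia, were read in cells of the left–right organizer (LRO) and in non-LRO cells of mouse embryos. The programme was taken as 9 genes chosen by symbol: Gmnc, Mcidas, E2f4, E2f5, Myb, Trp73, Ccno, Deup1 and Cdc20b. In the deposited table of 17586 genes, 7 of the 9 were found under the same symbol. Deup1 was found under its older symbol, Ccdc67, by its RefSeq transcript, and Gmnc had no row. The 8 genes found had 2202 LRO reads and 2449 non-LRO reads.

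Both groups were cells of FOXJ1-EGFP embryos of the strain C57BL/6 x 129 SvEv at embryonic day 8 by the labels, or slightly later by the methods of the study, with 0 to 4 somites, in which the promoter of FOXJ1, a regulator of motile cilia, drives green fluorescent protein (GFP). Cells sorted as GFP positive gave the LRO library, and cells sorted as GFP negative gave the non-LRO library. Each group was 1 library from a pool of embryos, the pools came from different embryos, and the LRO pool held fewer cells and less RNA. With 1 library per group there is no replicate check, no test of the conditions was made, and the amount of starting RNA cannot be told apart from the group.

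In multiciliated cells, the coiled-coil proteins encoded by Gmnc (GEMC1) and Mcidas (multicilin), relatives of the cell-cycle inhibitor geminin, bind no DNA by themselves and act through E2F4 or E2F5 with a DP partner. The complex switches on Myb, Trp73, Foxj1 and genes of centriole amplification such as Ccno, Deup1 and Cdc20b, and the cells build most of their basal bodies on deuterosomes, structures found in multiciliated cells. Cells of the LRO, the ciliated pit at which the left–right axis of the embryo is set, instead carry a lone primary-type cilium, motile in the centre of the pit, that grows from a pre-existing centriole.

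Ccno, Mcidas and Cdc20b are neighbours on chromosome 13, read in the same direction, so their promoters are shown, with 1 of the 2 promoters of Deup1, another gene of centriole amplification, chosen because it holds an X-box. Each runs from 250 bases before to 50 bases after the start of transcription, 5′ to 3′ on the gene's strand, in RefSeq's GRCm38.p6. Capitals mark the X-box, the DNA site of RFX transcription factors, searched as GTNNCC, any 2 bases and GGNNAC, a pattern that reads the same on both strands, or its half-site GTTGCC, searched on both strands and also found inside some X-boxes. In that build the promoters lie at chr13:112987552-112987851 for Ccno, chr13:112993618-112993917 for Mcidas and chr13:113035129-113035428 for Cdc20b on the plus strand, and at chr9:15627797-15628096 on the minus strand for Deup1.
Ccno: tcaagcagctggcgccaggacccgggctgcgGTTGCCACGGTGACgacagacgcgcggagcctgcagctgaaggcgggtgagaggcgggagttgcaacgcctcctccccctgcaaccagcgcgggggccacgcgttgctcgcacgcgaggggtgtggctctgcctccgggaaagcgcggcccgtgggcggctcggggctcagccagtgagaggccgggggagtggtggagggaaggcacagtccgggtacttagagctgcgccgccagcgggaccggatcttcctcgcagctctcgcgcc
Mcidas: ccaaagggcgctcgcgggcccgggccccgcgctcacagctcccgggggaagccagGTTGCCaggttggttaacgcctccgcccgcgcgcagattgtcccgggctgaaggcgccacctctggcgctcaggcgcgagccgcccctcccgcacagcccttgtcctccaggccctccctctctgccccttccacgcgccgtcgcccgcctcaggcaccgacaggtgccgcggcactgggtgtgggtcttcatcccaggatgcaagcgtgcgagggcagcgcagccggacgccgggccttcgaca
Cdc20b: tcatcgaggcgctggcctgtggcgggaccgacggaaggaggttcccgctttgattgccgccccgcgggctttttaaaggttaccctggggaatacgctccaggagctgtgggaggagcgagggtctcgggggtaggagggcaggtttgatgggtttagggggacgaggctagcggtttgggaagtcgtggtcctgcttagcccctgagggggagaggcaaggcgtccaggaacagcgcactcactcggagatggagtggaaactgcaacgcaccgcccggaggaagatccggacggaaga
Deup1: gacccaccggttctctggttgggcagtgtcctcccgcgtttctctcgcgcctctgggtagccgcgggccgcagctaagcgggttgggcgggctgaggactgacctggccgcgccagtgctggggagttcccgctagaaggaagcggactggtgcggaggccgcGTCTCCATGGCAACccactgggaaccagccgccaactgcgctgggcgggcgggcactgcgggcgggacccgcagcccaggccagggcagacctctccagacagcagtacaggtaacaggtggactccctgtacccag

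Of the 9 genes, 7 had a RefSeq promoter, with 10 promoters in all, and E2f4 and E2f5 had none. An X-box was in 2 of the 10, at -219 to -206 in Ccno and at -87 to -74 in Deup1, and in 1.88% of all 32851 mouse promoters of that length. The half-site was in 4 of the 10, those X-boxes included, against 12.5% of all promoters. Deup1 has another RefSeq promoter, at chr9:15628257-15628556, which held none of the motifs searched and is not printed. In Mcidas the half-site lay at -195 to -190 with no full X-box, and the Cdc20b promoter held neither form. An E2F site, searched as TTTCCCGC, TTTGGCGC, TTTCGCGC or TTTGCCGC on both strands, was in 0 of the 10, against 2.26% of all promoters. A forkhead site searched for FOXJ1 as GTAAACA was in 1 promoter, that of Myb, against 3.65%. The MYB site CAACTG was in 3, of Deup1, Gmnc and Trp73, against 13.7%. These matches describe letters in these windows, and the motifs were chosen after the sequences had been seen.

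Levels of the members fell into 3 ranges. E2f4 and E2f5, which most cells use in the cell cycle, had at least 325 reads in each library. Myb had 67 reads and Ccno 29 in the library where each was higher, and Mcidas, Trp73, Deup1 and Cdc20b had at most 7 reads in either library. RPKM is reads scaled to transcript length in kilobases and to the library total, and the percentile given with it is the place of that RPKM among all 17586 genes in the same library. A floor of 3 reads, the limit that a count of 0 allows, was used where a library had no read.

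**Figure D1:**
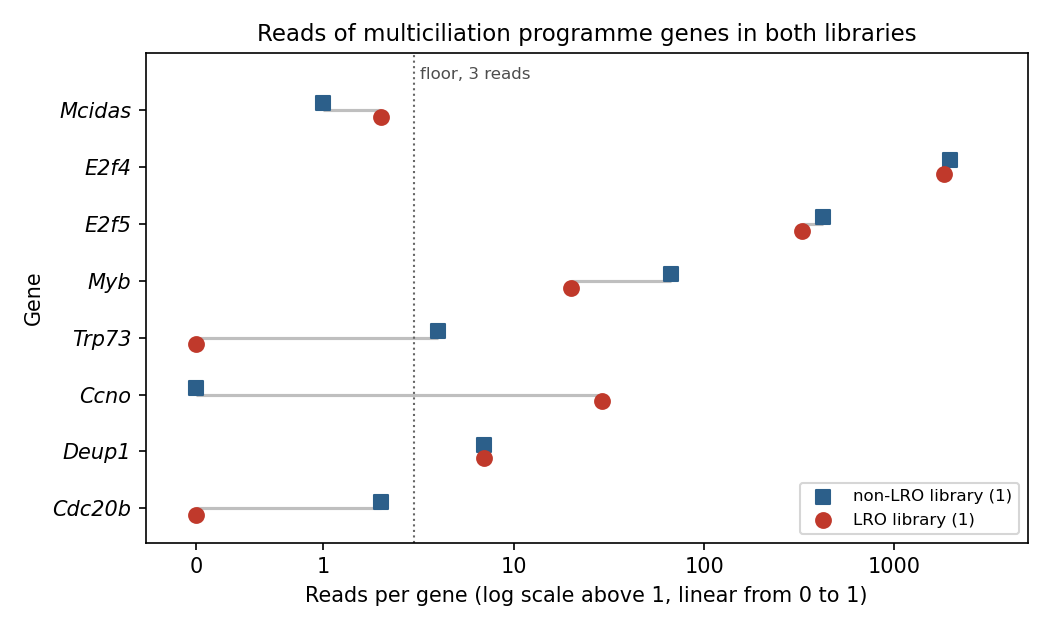
Reads per gene (horizontal axis, log scale above 1) of the 8 members found, in the LRO library (circles) and the non-LRO library (squares), 1 library each. For E2f4 and for E2f5 the points of the 2 libraries lie close together, Ccno is at 29 against 0 and Myb at 20 against 67, and the other 4 lie at 7 reads or fewer.

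A gene was called higher in the LRO library when the exact 95% interval of its LRO to non-LRO ratio, after scaling to library totals, lay above 2, and lower when it lay below 0.5. By this rule 3.97% of all genes were higher and 12.3% were lower. Of the 8 members found, 1 was higher (Ccno), 1 was lower (Myb) and 6 were neither. With TMM factors, another scaling between libraries, 6.45% of all genes were higher and 7.89% lower, and of the members 1 was higher and 0 lower. Each of these shares is 1 gene of 8, so nothing is read from them about the members as a group. The median log2 ratio of the members was -0.55, against -0.42 for all genes, with 1 read added to each count. Placing members that had 0 reads at their bound gave a median of -0.36. For well-read genes, the 9894 that had 50 or more reads in each library, the median was -0.31 on the log2 scale, a ratio of 0.809, so that most well-read genes sat slightly below 1 on this scale.

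Of the geminin-family regulators at the head of the programme, Mcidas had 2 LRO reads and 1 non-LRO read. Mcidas has 7 exons and lies at 113784076 to 113790603 on chromosome 13 in the older build used in the table. The counts are RPKM values of 0.0282 and 0.0176, at percentiles 16.7 and 6.13. Both counts were under the floor, so no fold was taken, and the interval of the ratio ran from 0.0839 to 95.1. A difference in Mcidas was therefore not detectable at this depth. For Gmnc no row carried its symbol, an older symbol or a RefSeq accession, and the table lists 0 transcripts that had no read in either library. Whether Gmnc was in the annotation behind the table was not tested.

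The multicilin partners E2f4 and E2f5 were the members with most reads. E2f4, which binds pocket proteins to repress cell-cycle genes and also serves the multicilin complex, had 1819 LRO reads and 1947 non-LRO reads. The gene has 10 exons and lies at 107821563 to 107829271 on chromosome 8 of that build. Its RPKM was 30.1 and 40.0, which put it at percentiles 95.05 and 95.9 and so near the top of the genes of each library. The ratio was 0.753 (95% interval 0.706 to 0.803), a log2 ratio of -0.41, and lay at percentile 42.6 among the well-read genes. With TMM factors the ratio was 0.959 (0.899 to 1.02). E2f4 was thus neither higher nor lower, and its interval reached 1 with TMM factors.

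E2f5, the closest relative of E2f4, had 325 LRO reads and 421 non-LRO reads, at RPKM 6.14 and 9.86. It has 8 exons and lies on chromosome 3 from 14578671 to 14606310. Its ratio was 0.622 (0.537 to 0.721), a log2 ratio of -0.68, at percentile 25.6 among well-read genes. With TMM factors it was 0.792 (0.684 to 0.918), so that the interval stayed under 1 but above 0.5. Per length, E2f4 was 4.91 times E2f5 in the LRO library and 4.06 times E2f5 in the non-LRO library. E2f4 alone took 82.6% of the members' LRO reads and 79.5% of their non-LRO reads. The last 22 bases of E2f5 in the table overlap 1810022K09Rik on the other strand, which had 238 and 109 reads. The library kit keeps no strand, so reads in that overlap cannot be told apart.

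Reads that cross a splice junction were also given for each transcript. For E2f4, 382 of 1819 LRO reads (exact 95% interval of the share 19.1% to 22.9%) and 431 of 1947 non-LRO reads (20.3% to 24.1%) crossed one. For E2f5 the shares were 28.9% (24.1 to 34.2) and 21.4% (17.6 to 25.6). These intervals overlap, which does not show that the shares are alike, and their difference was not tested. Across genes with 1 transcript and at least 50 reads, the median share was 14.1% for the LRO and 15.04% for the non-LRO library, so both E2F partners had a share above the median in each library. Of the 23 reads of Mcidas, Trp73, Deup1 and Cdc20b in both libraries together, 0 crossed a junction.

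Myb, a transcription factor that starts centriole amplification in multiciliated precursors and maintains blood progenitors, was the member called lower. It had 20 LRO reads and 67 non-LRO reads, at RPKM 0.193 and 0.729 and percentiles 28.2 and 37.0. Myb lies on the minus strand of chromosome 10 from 20844736 to 20880791. The LRO library was 4.16-fold lower (2.49 to 7.23). The call rested on the scaling, since with TMM factors the ratio was 0.306 with an upper bound of 0.511. Of its reads, 4 of 20 and 17 of 67 crossed a junction.

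Genes that mark red blood cells were mostly called lower too, against 12.3% of all genes. Of 12 erythroid markers, 11 were lower in the LRO library, 0 higher and 1, Kit, neither. Their RPKM summed to 7.04 for LRO cells and 2528 for non-LRO cells, with single genes from 0 to 3.21 and from 1.02 to 1729. The embryonic globin genes Hbb-bh1, Hba-x and Hbb-y had 1, 3 and 2 LRO reads. Gata1 and Klf1, regulators that define the erythroid lineage, were at 0 reads in the LRO library and at 124 and 163 in the non-LRO library. The part of blood cells in the value of Myb was not tested. In pools of cells such as these, fewer cells of a type and less RNA per cell cannot be told apart.

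The estimated split between the 2 Myb transcripts differed between the libraries. The longer, NM_001198914, has an extra coding exon of 357 bases (chromosome 10, 21144969 to 21145325, GRCm38) and took 65.3 of the 67 non-LRO reads and 0.153 of the 20 LRO reads. The shorter, NM_010848, took 1.67 and 19.8. As shares of the gene's reads the longer transcript held 97.5% in the non-LRO library and 0.765% in the LRO library. These are estimates that divide few reads among transcripts with nearly all exons in common, and reads on the extra exon itself were not given. The rule, run on these estimates rounded to whole reads, called the longer transcript lower in the LRO library. The upper bound of its ratio was 0.0471, against a ratio of 0.241 for the gene. For the shorter transcript the ratio was 8.06 with an interval from 1.96 to 71.1, neither higher nor lower by the rule. These intervals leave out the error of splitting reads between transcripts, so no difference between the transcripts is read from them.

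Trp73, a member of the p53 family that acts upstream of Foxj1 in multiciliated cells of the airway, had 0 LRO reads and 4 non-LRO reads. It lies on the minus strand of chromosome 4 from 153430358 to 153514318. Its RPKM was 0 and 0.0366. The upper bound of the LRO to non-LRO ratio was 1.22, so no difference was detectable at this depth. Of the 4 reads, an estimated 3.81 were given to NM_001126331, which starts inside the gene, 0.179 to NM_001126330, which shares that start, and 0.00982 to NM_011642, which starts upstream and encodes the form with a transactivation domain. The 3 transcripts share most exons, so 4 reads do not place the start that was used.

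Ccno was the member called higher. It encodes cyclin O, which multiciliated cells need to amplify centrioles and without which they bear few cilia. Its reads were 29 in LRO cells and 0 in non-LRO cells, at RPKM 0.511 and 0, where the floor of 3 reads stands for an RPKM of 0.0655. The 95% interval of its ratio began at 5.94 and had no upper end. Its LRO level was at percentile 37.2 of all genes, below the middle of the library.

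A gene with no non-LRO read needed 11 LRO reads to be called higher. Of 799 genes whose non-LRO reads rounded to 0, 103 were called, and 41 of these had more LRO reads than Ccno and 2 had as many. Of the 29 Ccno reads 1 crossed a junction (3.45%, exact 95% interval 0.0873 to 17.8), an interval that holds the 14.1% median of the library. Ccno has 3 exons in its transcript, NM_001081062. With all counts divided by 10, to mimic amplified copies of fewer molecules, the lower bound fell to 0.333 and the call was lost.

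None of the genes beside Ccno was called by the rule. On chromosome 13 of the older build used in the table, Ccno runs from 113778010 to 113780987 and Mcidas begins 3.09 kb after its end. Cdc20b begins 44.6 kb after Ccno ends and had 0 LRO reads and 2 non-LRO reads. Within 200 kb of Ccno the table held 7 other genes, of which 0 were higher, 0 lower and 7 neither. Of these, 3 had at least 50 reads in both libraries. Over all genes 3.97% were higher and 12.3% lower, so nothing is read from 0 calls among 7 genes. Dhx29, a helicase gene upstream of Ccno, had 807 and 1009 reads, a ratio of 0.645 (0.587 to 0.708). Gpx8, which lies inside Cdc20b on the other strand with an overlap of 3627 bases, had 116 and 118 reads, a ratio of 0.792 (0.608 to 1.03).

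**Figure D2:**
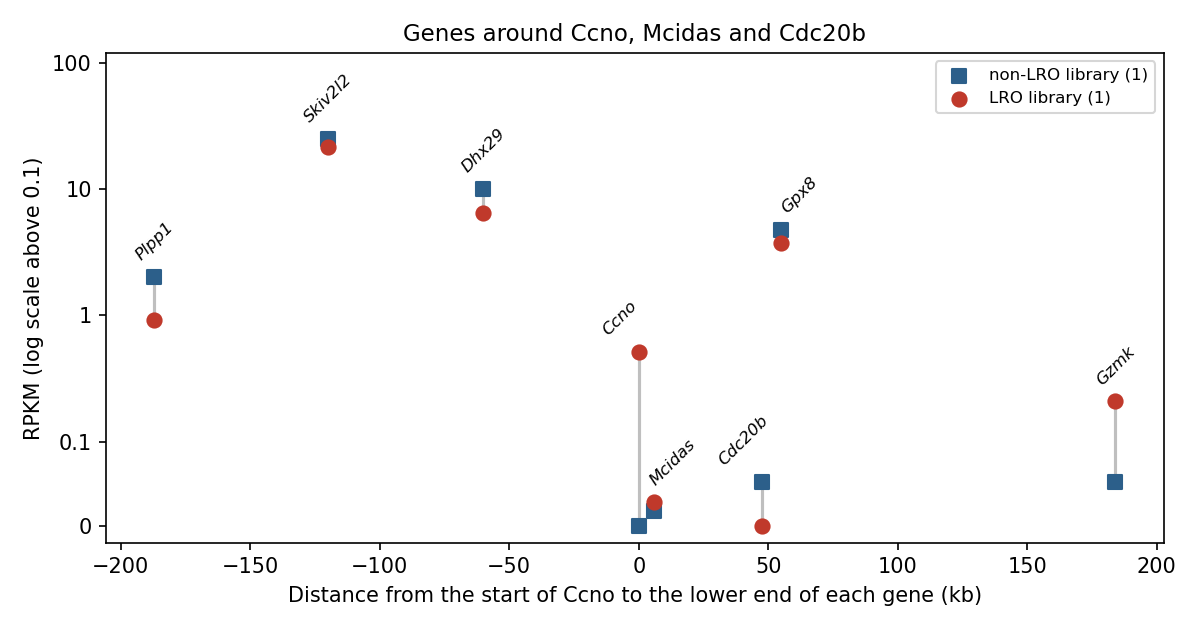
RPKM (vertical axis, log scale above 0.1) of Ccno and of the 7 genes within 200 kb of it, against the distance in kb from the start of Ccno to the lower end of each gene, in the LRO library (circles) and the non-LRO library (squares). Ccno is at 0.511 and 0, Mcidas and Cdc20b lie near 0 in both, and the 3 well-read neighbours have ratios from 0.645 to 0.852.

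Deup1, the scaffold of the deuterosome and a relative of the centriolar gene Cep63, had 7 reads in each library, at RPKM 0.0774 and 0.0919. It has 12 exons and lies on the minus strand of chromosome 9 from 15364308 to 15432378. The ratio of 0.806 had an interval from 0.241 to 2.69, which reaches above 2 and below 0.5. Cdc20b, a relative of the mitotic activator Cdc20 that associates with deuterosomes, had 0 LRO reads and 2 non-LRO reads. Both were under the floor of 3 reads, an RPKM of 0.0635 in the LRO library, and no fold was taken. Reads of Cdc20b cannot be parted by strand from those of Gpx8 where the genes overlap. The 3 genes of deuterosome and centriole amplification thus gave 36 LRO reads and 9 non-LRO reads in all, of which Ccno had 29 and 0.

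Paralogues of the members, which serve the cell cycle or p53 responses in many cells, were read in both libraries and none was called. Of 14 listed and measured, 0 were higher and 0 lower, against 3.97% and 12.3% of all genes, and 14 were neither. Their median log2 ratio was -0.43, against -0.42 for all genes. Of the E2F genes, E2f3 had 2249 LRO and 1418 non-LRO reads, a ratio of 1.28 (1.20 to 1.37). E2f1 had 418 and 726 reads, a ratio of 0.464 (0.411 to 0.524), and E2f2 had 129 and 210, a ratio of 0.495. E2f6, E2f7 and E2f8 had ratios of 0.788, 1.05 and 0.806, so the E2F genes spread on either side of E2f4 and E2f5.

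Among relatives of the downstream factors, Mybl2, the MYB gene of dividing cells, had 1669 and 1663 reads, a ratio of 0.809 (0.755 to 0.866). Mybl1 had 56 and 98 reads, a ratio of 0.461. The intervals of Mybl1 (0.326 to 0.646) and of Myb (0.138 to 0.401) overlapped, while that of Mybl2 lay above that of Myb. Such an overlap does not show that the ratios of Mybl1 and Myb are alike. Trp53 had 6058 and 5474 reads, a ratio of 0.892, and Trp63, a regulator of stratified epithelia, had 17 and 13. Gmnn, which encodes geminin, had 243 and 355 reads, a ratio of 0.552. Cep63 had 249 and 435 reads, a ratio of 0.461, and Cdc20 had 1527 and 1754, a ratio of 0.702. Fzr1, the other activator of the anaphase-promoting complex, had 531 and 675, a ratio of 0.634.

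**Figure D3:**
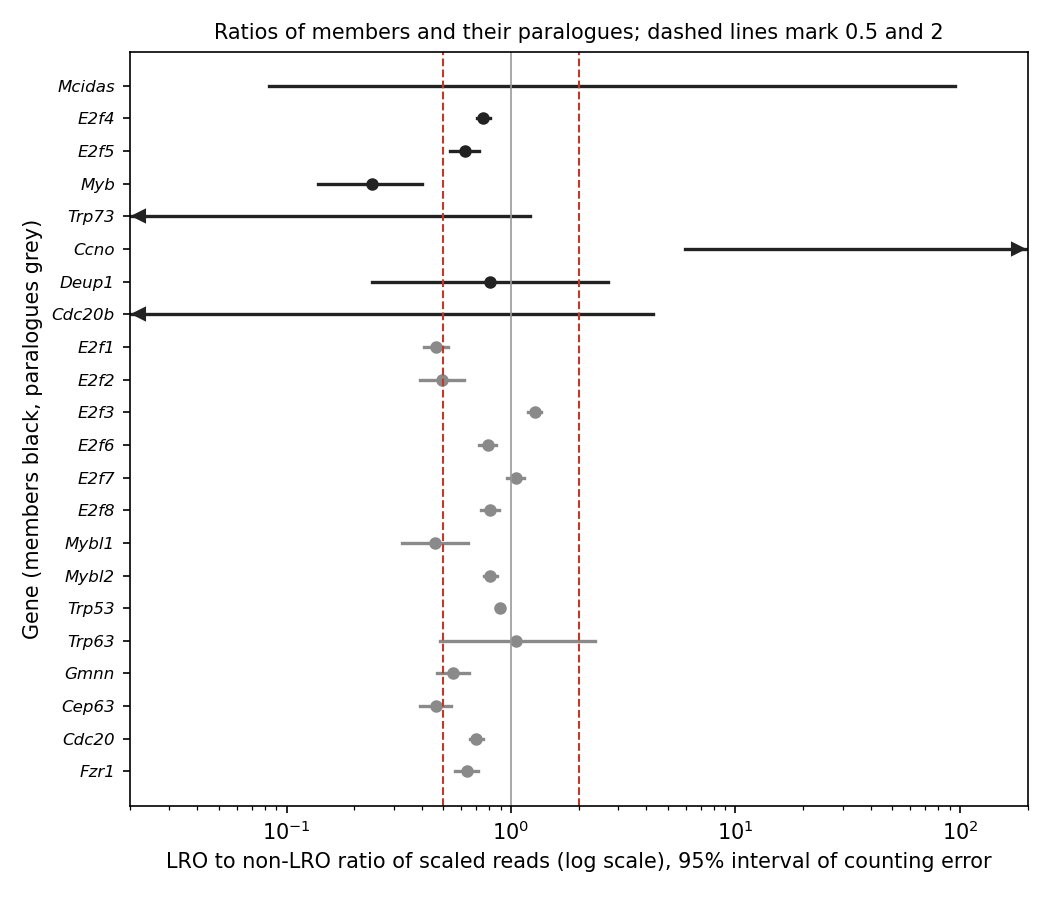
LRO to non-LRO ratio of scaled reads (horizontal axis, log scale) with its exact 95% interval of counting error for the 8 members found (black) and their 14 paralogues (grey). Arrows mark intervals with no bound inside the plot, members with a count at or under the floor in both libraries or at 0 have no point, and only the intervals of Ccno and Myb lie wholly outside the dashed lines at 0.5 and 2.

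Cofactors through which E2F4, E2F5 and MYB proteins act, listed with Gmnn and Cdt1, were likewise not called. Gmnn is also among the paralogues above. Of 12 genes of the E2F cofactor and DREAM list, 0 were higher, 0 lower and 12 neither. Over all genes 3.97% were higher and 12.3% lower. The listed genes had a median log2 ratio of -0.53. Their RPKM ran from 0.671 to 23.7 in the LRO library and from 0.731 to 37.4 in the non-LRO library. Tfdp1, the DP partner of multicilin's complex, had 1405 and 2282 reads, a ratio of 0.496 (0.464 to 0.531). Tfdp1 was named after its values had been seen. Reads of E2f4, E2f5 and Tfdp1 were thus found in both libraries, while Mcidas had 2 and 1.

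Of 24 genes listed for centriole assembly, 3 were called lower, about the share of all genes. Not all of these genes serve every cycling cell. Among them Ccdc78, named after its values had been seen, had 46 LRO reads and 36 non-LRO reads, a ratio of 1.03. The list had 0 higher, 3 lower and 21 neither, 12.5% lower against 12.3% of all genes, and a median log2 ratio of -0.57. Spice1, a gene of centriole duplication, had 60 LRO reads and 326 non-LRO reads and was 6.74-fold lower (5.10 to 9.03). Cep152, a scaffold that works with CEP63 and, in multiciliated cells, with DEUP1, had 71 and 277 reads and was 4.84-fold lower (3.72 to 6.37). Cntrob, which encodes centrobin, had 232 and 556 reads and was 2.97-fold lower (2.55 to 3.48), a call that was lost with TMM factors. For the mitotic oscillator that multiciliated cells reuse without dividing, cyclins and kinases were listed with other cell-cycle regulators, and 14 genes were measured. Of these 0 were higher and 0 lower, against 3.97% and 12.3% of all genes, and 14 neither, with a median of -0.71. Cep63 in the centriole list, and Cdc20 and Fzr1 in the oscillator list, are also among the paralogues.

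Transcription factors of ciliogenesis, listed with Nek10 and microRNA genes, included genes called higher. Of 13 genes listed, 7 were measured, all of them transcription factors. Of these 3 were higher (42.9%, against 3.97% of all genes), 0 lower and 4 neither, with a median log2 ratio of -0.55. Noto and Foxj1 are also among the LRO markers below. Nek10 and the microRNA genes Mir449a, Mir449b, Mir449c, Mir34b and Mir34c had no row. Noto, a homeobox regulator of the node that acts upstream of Foxj1 there, had 307 and 0 reads. Foxj1 had 194 and 4 reads, 39.1-fold higher (15.03 to 145), and its promoter drove the sort, so it checks the sort only. Rfx3, one of the factors that bind the X-box, had 2742 and 1028 reads, 2.15-fold higher (2.001 to 2.31), just inside the rule. That call was lost when libraries were scaled to assigned reads, at a bound of 4, under a 99% interval and after dividing reads by 10.

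Markers known from multiciliated epithelia of other tissues were higher in part. Of 10 listed, 7 were measured, and 4 were higher (57.1%, against 3.97% of all genes), 0 lower and 3 neither. Their median log2 ratio was 3.82. That median was 4.21 with 0.5 reads added to each count and 2.39 with 5 added. Pifo, which acts at the ciliary base, had 113 and 0 reads, and Fam183b had 97 and 1. Pifo is also among the LRO markers below, and the study calls Fam183b a known LRO gene. 1110017D15Rik had 40 and 1 reads, and Dynlrb2, a dynein light chain gene, had 34 and 1. Tmem212 and Ccdc153 had 2 and 1 LRO reads and 0 non-LRO reads, Tppp3 had 61 and 30, and Sntn, Cdhr3 and Cdhr4 had no row. Genes for motile cilia serve cells with a lone cilium as well as multiciliated cells, so this list does not part the types.

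The 7 LRO markers were fixed from the study, which used these libraries, so they are no independent check of the labels. All 7 were higher, with 107 to 731 LRO reads and 0 to 28 non-LRO reads each. Their summed reads were 2156 and 65. Noto, Shh, Pifo and Foxj1 had the highest lower bounds, and Shh had 731 and 9 reads. Beside these, Ccno had 29 LRO reads, fewer than any LRO marker, and the other members of deuterosome and centriole amplification had 7 or 0. The part of cell makeup in the value of Ccno was not tested. The libraries held 16672852 (LRO) and 13418798 (non-LRO) assigned reads, with at least 1 read after rounding for 15354 and 16787 genes.

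**Figure D4:**
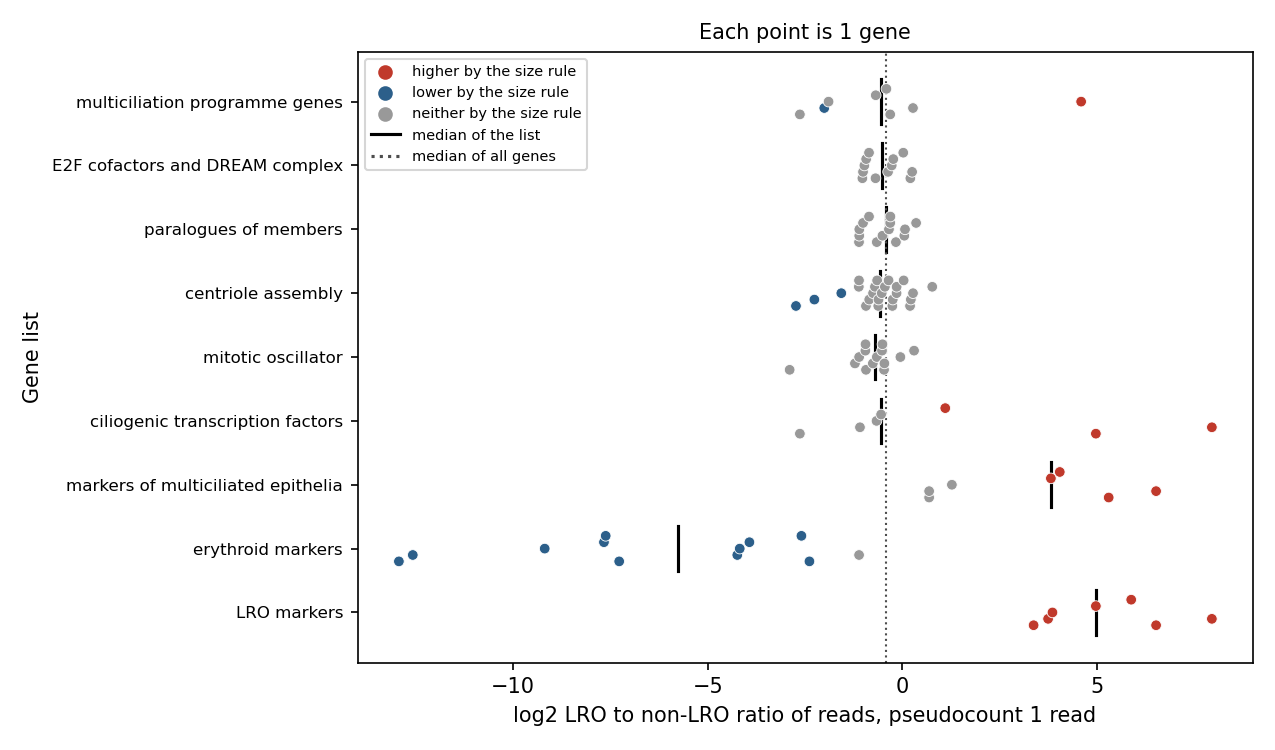
The log2 LRO to non-LRO ratio of reads, with 1 read added to each count (horizontal axis), for each gene of the multiciliation programme and of 8 comparison lists. Points are genes coloured by the size rule, short bars are list medians and the dotted line is the median of all genes, -0.42. The members' points lie around that line apart from Ccno on the right and Trp73, Cdc20b and Myb on the left.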

How the data were processed

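RNA was extracted with the RNeasy Micro kit, turned into amplified double-stranded cDNA without strand (Ovation RNA-Seq System v2) and made into Nextera libraries. The authors aligned reads with TopHat and quantified them with Partek 6.6. Deposited estimated counts are reads per RefSeq transcript, split between transcripts of a gene, so they need not be whole. Deposited RPKM values were scaled by the authors to transcript length and library total, and deposited junction RPKM is the part from reads across splice junctions. Transcript length in bases was also used. The 2 columns of incompatible RPKM were not used, nor were the authors' columns of chi-square statistics and p-values for differential expression and alternative splicing, which compare reads of the 2 libraries. The LRO column carries no sample label, and was assigned as the only other library, given as GFP positive in the study's supplement. The labels name mm10, but positions on chromosome 1 reach 197002910 in the table and 195323493 in GENCODE M21 (GRCm38), so positions of the table are of an older build.

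Reads of the 27606 transcripts were summed per symbol and rounded. Ratios were scaled to the totals behind RPKM, recovered from reads, length and RPKM (30277870 LRO, 24407299 non-LRO), and the 95% interval is exact, from the conditional binomial of the reads (Clopper-Pearson). No p-value was computed. Intervals and floors cover counting error only, and since the kit amplifies, copies of a molecule are counted as separate reads and intervals can be too narrow. Junction reads were recovered from junction RPKM and were whole within 0.02 for 99.9% of single-transcript genes with whole reads. The size rule was tested on simulated data. The alternatives were scaling by TMM factors (edgeR 4.0.16 in R 4.3.3), assigned reads or the median ratio of well-read genes, a 99% interval, bounds of 1.5 and 4 in place of 2, a minimum of 50 reads over both libraries, reads divided by 10, the transcript with most reads or summed RPKM, pseudocounts of 0.5 and 5, and exact symbols against synonyms. Other work used Python 3.11.15 with numpy 2.4.6, pandas 2.3.3 and scipy 1.17.1.

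All members were named, with each gene called in a list of 5 or fewer calls, otherwise the 4 with the highest lower bounds and the 4 with the lowest upper bounds, every listed paralogue and every gene overlapping a member. Genes named for their place beside Ccno, or because a list has no row for them or defines a cell type, lie outside that rule. Members and lists were chosen with earlier results of these data known. The LRO marker list came from the study, and is not independent evidence of direction. The values of 1 marker gene are not reported here.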

Additional observations from a re-analysis of the deposited data

How the results depend on the processing

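With 1 library per group no replicate could be left out, and every value is limited by reads, which leave 4 of the 8 members found at 7 reads or fewer. No paired analysis was possible because LRO and non-LRO cells have only 1 library each. No call turned to the other direction, while Deup1, not called, went from a ratio of 0.806 to 1.03 with TMM factors. Of the counts of calls 157 stayed within 1.5 times, among them many that were 0 and stayed 0, and 25 moved. Of the ratios of members, 65 kept their call or, for summed RPKM, lay inside the main interval, and 4 lost their call. Members left out by the minimum of 50 reads are not among these ratios. Mcidas, Trp73 and Cdc20b, which rounded to 0 in both libraries after division by 10, are left out there. For summed RPKM, Ccno, Trp73 and Cdc20b, at 0 in a library, are left out. The members' 1 higher call became 0 with at least 50 reads over both libraries, which leaves out Ccno, and 0 with reads divided by 10. Their 1 lower call became 0 with TMM factors, 0 at a bound of 4 and 0 after dividing reads by 10, where the upper bound of Myb was 1.21. With a fold bound of 1.5, lower calls were 4 among E2F cofactors, 5 among paralogues, 7 in centriole assembly and 5 in the mitotic oscillator, and with a bound of 4 centriole assembly kept 1. With the transcript with most reads, 1 E2F cofactor was higher and 1 ciliogenic transcription factor lower. Of the markers of multiciliated epithelia 2 were higher with at least 50 reads and 1 with reads divided by 10. Over all genes, higher and lower calls were 699 and 2167, against 1134 and 1388 with TMM factors, 1056 and 1443 with the median ratio, 1242 and 3872 with a bound of 1.5, 246 and 680 with a bound of 4, and 155 and 293 with reads divided by 10, and 1343 were lower with at least 50 reads. For well-read genes the median went from -0.31 to 0.04 (log2) under TMM factors. With 0.5 and 5 reads added in place of 1, the median log2 ratio was -6.35 and -4.43 for erythroid markers (-5.76 with 1) and 5.12 and 4.16 for LRO markers (4.97 with 1).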
